A study of Mus musculus with 45 samples.

Results

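The regions described here are 387 promoter peaks bound by the repressor protein Capicua (CIC) in cerebellum of the mouse. They were chosen from the deposited peak lists: each is a wildtype (WT) peak on chromosomes 1 to 19 with a summit within 1 kb of an annotated transcript start, its interval overlaps a peak of 154Q mice by at least 1 bp, and it overlaps no peak of 154Q[V591A;S602D] mice. WT had 4495 peaks on these chromosomes, of which 2578 lay at promoters by this definition, so the 387 peaks were 15.0% of WT promoter peaks. Of the other WT promoter peaks, 318 were in all 3 lists, 1752 were in the WT list alone and 121 were shared with 154Q[V591A;S602D] but not with 154Q. Presence in WT and 154Q and absence in 154Q[V591A;S602D] is the selection itself and is not a result.

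CIC binding was measured by CUT&RUN, in which an antibody tethers a nuclease that releases the DNA under its target protein, in cerebellum of C57BL/6 mice at 10 weeks of age. The groups were wildtype mice (WT, n = 4), heterozygotes with a polyglutamine-expanded allele of Atxn1 (Atxn1 154Q/2Q, called 154Q, n = 4), heterozygotes with V591A and S602D added to the expanded allele (Atxn1 154Q[V591A;S602D]/2Q, n = 3), and Engrailed1-Cre;Cic fl/fl mice (CIC KO, n = 4), the negative control for every peak call. Both expanded-allele groups keep a normal Atxn1 allele, and all groups other than CIC KO keep Cic. Engrailed1-Cre deletes Cic only in the lineage that has expressed Engrailed1, which limits the control to that lineage. The other 30 of the 45 samples carried antibodies against H3K27ac or non-specific IgG and are not analysed here.

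CIC is a DNA-binding repressor with an HMG box that recognises an octamer with the core AATG. It is best known for silencing targets of receptor tyrosine kinase and RAS-ERK signalling, such as Etv4, Etv5, the Spry genes and Dusp6, and ERK activity relieves that silencing. ATXN1, the protein whose polyglutamine expansion causes spinocerebellar ataxia type 1, forms a complex with CIC through its AXH domain, and V591A and S602D lie in that domain and disrupt the contact. The comparison of the expanded allele with and without these substitutions asks how far CIC occupancy depends on the contact.

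The deposited WT list held 4596 peaks, the 154Q list 1695 and the 154Q[V591A;S602D] list 922, over all chromosomes and after the lines of a peak with several summits were collapsed to 1. The authors pooled the animals of a genotype before calling its peaks against pooled CIC KO, so a peak has 1 value per genotype with no spread between animals, and differences between genotypes were not tested from these lists. Absence from a list means that no peak was called there, not that CIC was absent. The lists also differ in form, since 154Q peaks are given as 1-bp summits after removal of repeat-rich peaks, whereas the other lists hold intervals and keep such peaks. Strength is given as −log10 q, the peak caller's significance against CIC KO adjusted over the genome, and as the rank of that value within the whole list, with rank 1 the strongest.

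Sequence was not used in the selection. The CIC octamer was searched as TGAATGAA, TGAATGGA, TCAATGAA and TCAATGGA on both strands within 50 bp of the highest WT summit. The 8 of the 387 windows that hold it are shown first, because they are the members with a searched spelling near the summit. Each window is 101 bp of the GRCm38 plus strand, and capitals mark the octamer.
Vsnl1, chr12:11436790-11436890: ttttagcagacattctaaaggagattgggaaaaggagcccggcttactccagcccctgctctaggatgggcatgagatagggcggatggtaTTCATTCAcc
Chkb, chr15:89429949-89430049: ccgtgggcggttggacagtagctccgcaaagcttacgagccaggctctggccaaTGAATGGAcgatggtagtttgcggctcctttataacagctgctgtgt
Psmb3, chr11:97703000-97703100: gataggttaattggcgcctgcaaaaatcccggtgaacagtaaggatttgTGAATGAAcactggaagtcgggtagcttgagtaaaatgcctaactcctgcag
Gm46102, chr9:9583123-9583223: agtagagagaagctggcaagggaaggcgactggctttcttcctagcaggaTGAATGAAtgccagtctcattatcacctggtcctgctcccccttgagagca
Wasf1, chr10:40883410-40883510: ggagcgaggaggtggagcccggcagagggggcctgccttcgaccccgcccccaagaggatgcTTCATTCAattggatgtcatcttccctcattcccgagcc
Fam213b, chr4:154899288-154899388: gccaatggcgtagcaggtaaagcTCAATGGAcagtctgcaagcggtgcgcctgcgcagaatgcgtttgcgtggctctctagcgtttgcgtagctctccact
Cpeb2, chr5:43232996-43233096: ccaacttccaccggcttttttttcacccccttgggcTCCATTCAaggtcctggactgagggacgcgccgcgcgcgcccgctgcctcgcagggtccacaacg
B830012L14Rik, chr12:109694864-109694964: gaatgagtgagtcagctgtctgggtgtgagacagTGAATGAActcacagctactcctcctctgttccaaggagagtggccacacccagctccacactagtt

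TGAATGAA accounted for 5 of these windows, TGAATGGA for 2, TCAATGGA for 1 and TCAATGAA for 0. The octamer lay 2.5 bp from the WT summit at Psmb3, which encodes a subunit of the proteasome core, and 3.5 bp from it at the long non-coding RNA gene Gm46102. It lay 7.5 bp from the summit at Chkb, a choline kinase gene, 10.5 bp at Cpeb2, whose product binds cytoplasmic polyadenylation elements in mRNA, and 12.5 bp at B830012L14Rik. At Wasf1, a regulator of actin assembly, the distance was 15.5 bp, at Fam213b it was 23.5 bp, and at the edge of the window it was 44.5 bp for Vsnl1, a neuronal calcium sensor gene. Distances are from the centre of the octamer.

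The strongest members in WT and in 154Q are shown for contrast, since their windows hold no octamer. Here capitals mark GGGCGG, the core of the GC box bound by SP and KLF zinc finger proteins, or its reverse complement, and a window with no capitals holds neither.
Pknox1, chr17:31564442-31564542: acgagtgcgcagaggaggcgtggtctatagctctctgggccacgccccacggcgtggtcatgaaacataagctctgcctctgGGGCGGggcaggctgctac
Emsy, chr7:98656704-98656804: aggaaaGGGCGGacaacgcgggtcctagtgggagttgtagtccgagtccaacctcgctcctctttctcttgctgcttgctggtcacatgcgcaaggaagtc
Yif1b, chr7:29238212-29238312: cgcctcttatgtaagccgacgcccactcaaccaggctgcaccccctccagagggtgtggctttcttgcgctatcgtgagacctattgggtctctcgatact
Mettl14, chr3:123386842-123386942: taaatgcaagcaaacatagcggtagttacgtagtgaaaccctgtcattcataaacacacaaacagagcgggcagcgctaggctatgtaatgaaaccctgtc
Bach2, chr4:32238579-32238679: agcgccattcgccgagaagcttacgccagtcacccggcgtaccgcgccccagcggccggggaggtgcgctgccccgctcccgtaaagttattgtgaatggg
Shc4, chr2:125723857-125723957: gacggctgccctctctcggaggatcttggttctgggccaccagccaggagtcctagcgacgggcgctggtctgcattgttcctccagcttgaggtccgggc

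Pknox1, Emsy and Yif1b had the highest −log10 q in WT among the 387 members. The peak at Pknox1, a TALE homeobox gene, spanned chr17:31564250-31564609 and had a −log10 q of 59.1 in WT (rank 45) and 24.8 in 154Q (rank 98). Its nearest 154Q[V591A;S602D] peak was 229397 bp away. At Emsy, whose product binds BRCA2, the values were 48.0 in WT (rank 62) and 20.05 in 154Q (rank 128). Yif1b, a gene of membrane traffic between the endoplasmic reticulum and the Golgi, had 45.4 in WT (rank 68) and 33.2 in 154Q (rank 76). All 3 peaks thus ranked 128 or better in both lists in which they were called, and the nearest 154Q[V591A;S602D] peak to Emsy and to Yif1b lay 158938 and 65374 bp away.

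The rest of the 10 strongest WT members ranked between 77 and 133 in WT. Gabarapl2, an autophagy gene of the ATG8 family, had a WT −log10 q of 41.5 and a 154Q −log10 q of 9.16. Rbbp4, a histone-binding subunit shared by several chromatin complexes, had 37.2 and 8.68. Lins1 had 32.4 and 9.45, Tmem87b had 30.7 and 9.42, and Map2k7, the kinase that activates JNK, had 30.5 and 12.5. The weakest of the 10 in 154Q were Dnaaf5, a dynein arm assembly factor gene, at 3.23 (154Q rank 960) and Ssc4d at 3.19 (154Q rank 966), against WT values of 35.3 and 33.4. High WT values thus went with 154Q ranks from 76 to 966.

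The order of the strongest 154Q members was different. Mettl14, encoding a subunit of the enzyme that writes N6-methyladenosine on RNA, had a −log10 q of 119 in 154Q (rank 17 of 1695) and 6.81 in WT (rank 1314 of 4596), with WT and 154Q summits 0 bp apart. Its WT interval was 59.96% repeat-masked sequence, and only 2 of the 387 members were over 50% masked. Bach2, a repressor of the CNC-bZIP family, had 70.8 in 154Q (rank 35) and 19.2 in WT (rank 300). Shc4, an adaptor gene of receptor tyrosine kinase signalling, had 58.1 in 154Q (rank 44) and 5.86 in WT (rank 1578). Atf7ip, which acts with the H3K9 methyltransferase SETDB1, had 47.7 in 154Q (rank 48) and 15.4 in WT (rank 448), and Triobp, a gene of actin organisation, had 36.9 (rank 65) and 3.27 (rank 2603). These 5 promoters ranked 65 or better in 154Q and between 300 and 2603 in WT.

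The other members among the 10 strongest of 154Q were Yif1b, 2610203C22Rik (26.4, rank 89), Ranbp3 (25.04, rank 96), Pknox1 and B830012L14Rik (24.4, rank 100). Ranbp3, a nuclear export cofactor gene, also ranked 251 in WT with a −log10 q of 21.9. B830012L14Rik had a WT value of 2.68 (rank 2959).

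**Figure D1:**
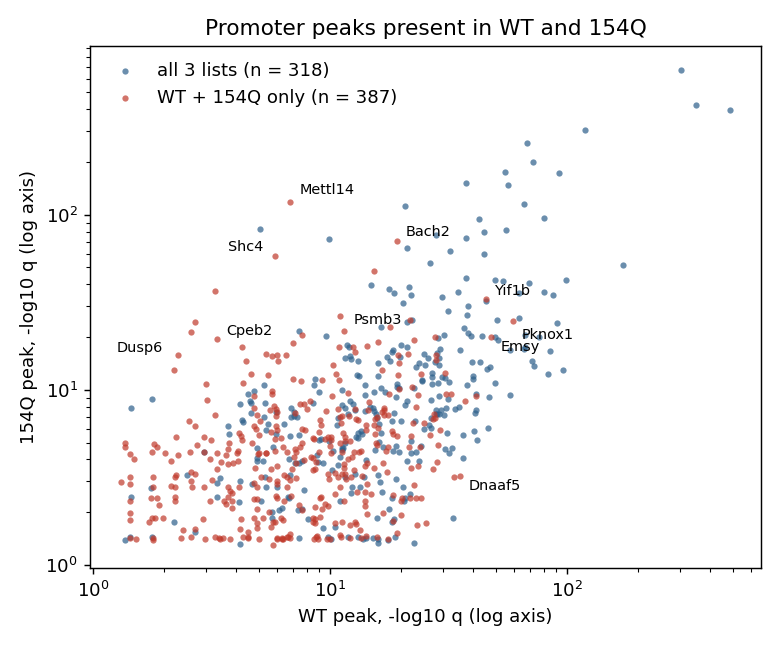
Strength of promoter peaks called in both WT and 154Q, as −log10 q against CIC KO in WT (horizontal, log axis) and in 154Q (vertical, log axis). Each point is 1 peak, red for the 387 absent from 154Q[V591A;S602D] and blue for the 318 present in all 3 lists. The red points fill the lower left, with medians of 7.63 in WT and 4.08 in 154Q, and Mettl14, Bach2 and Shc4 stand apart at high 154Q values.

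Over the 387 members the WT −log10 q ran from 1.31 to 59.1 with a median of 7.63, and the 154Q −log10 q from 1.31 to 119 with a median of 4.08. The 318 peaks in all 3 lists had medians of 17.8 and 7.71, and the 1752 in the WT list alone had a WT median of 3.33. Median WT fold enrichment over CIC KO was 3.43 for members, 4.17 for peaks in all 3 lists and 2.77 for peaks in the WT list alone. The median WT interval was 267, 416.5 and 194 bp wide in the same order. The 121 peaks shared by WT and 154Q[V591A;S602D] alone were close to members, with medians of 5.96 for WT −log10 q, 3.25 for fold enrichment and 269 bp for width. Values overlapped widely between these sets. Because the sets were defined by these same calls, these differences were not tested.

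Members were not the weak end of the lists alone. There were 5 of them among the 100 strongest WT peaks and 51 among the 300 strongest, and 10 and 56 among the 100 and 300 strongest 154Q peaks. By rank as a share of each list, 117 of 387 members and 63 of 318 peaks in all 3 lists stood higher in 154Q than in WT, in lists of unequal length.

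**Figure D2:**
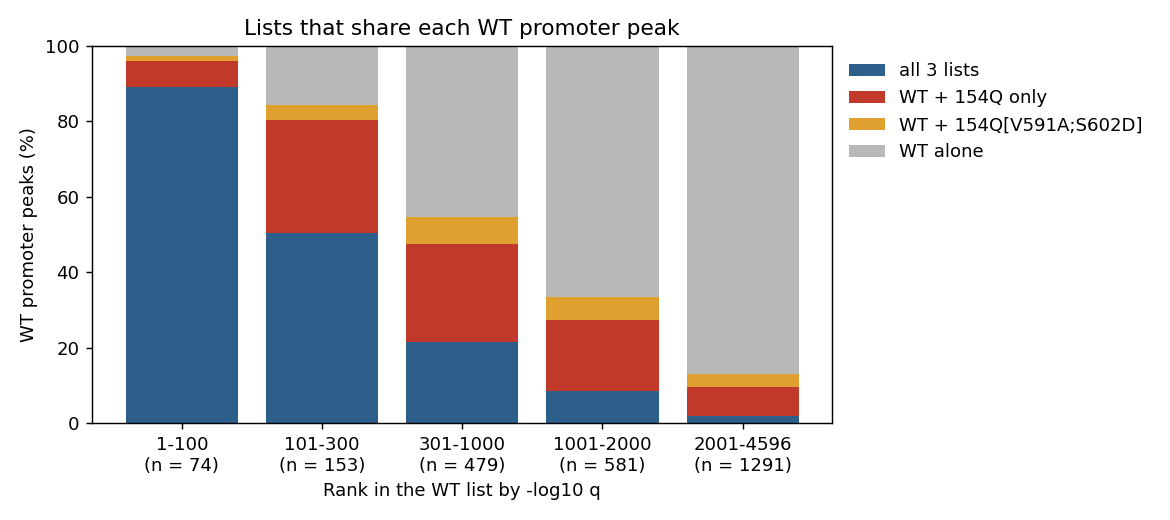
Lists that share each WT promoter peak, by rank in the WT list (horizontal, with the number of promoter peaks in each bin) and as a percentage of promoter peaks in the bin (vertical). The blue share, peaks in all 3 lists, falls from 89.2% in ranks 1 to 100 to 1.78% in ranks 2001 to 4596, while the red share, the members, is highest at 30.1% in ranks 101 to 300.

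Among the 74 promoter peaks in the 100 strongest WT peaks, 5 were members (6.76%) and 66 were in all 3 lists (89.2%). Members made up 46 of 153 promoter peaks (30.1%) at WT ranks 101 to 300, 124 of 479 (25.9%) at ranks 301 to 1000, 110 of 581 (18.9%) at ranks 1001 to 2000 and 102 of 1291 (7.90%) below that. Of the promoter peaks called in both WT and 154Q, the share that were members rose with 154Q rank, from 10 of 58 (17.2%) in ranks 1 to 100 to 138 of 194 (71.1%) in ranks 1001 to 1695. In 154Q, 27.3% of WT promoter peaks were found, and in 154Q[V591A;S602D] 17.0%.

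Outside promoters, 217 of 1917 WT peaks (11.3%) had the same pattern of calls. Given a call in both WT and 154Q, 54.9% of promoter peaks (387 of 705, 95% Wilson interval 51.2 to 58.5) and 71.9% of the other peaks (217 of 302, 66.5 to 76.6) were absent from 154Q[V591A;S602D]. Without that condition the shares stood in the other order, at 15.0% and 11.3%. Both shares come from the calls used in the selection, their intervals cover counting over peaks only, and no test was made.

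The relative depth of the merged libraries was estimated from the lists, since read totals were not used here. The lowest CIC KO background at a peak was 6.59 fragments for WT and 5.28 for 154Q[V591A;S602D], a ratio of 0.802, which was taken as that estimate. The median member had a WT pileup of 42 fragments, against 64 for peaks in all 3 lists and 31 for the WT list alone. With pileup and background scaled by this ratio, 42 of 387 members (10.9%) fell under the weakest −log10 p of the 154Q[V591A;S602D] list, 5.18. So did 9 of 316 peaks in all 3 lists (2.85%) and 28.1% of all WT promoter peaks. So did 19 of the 121 peaks shared by WT and 154Q[V591A;S602D] alone (15.7%), although all of these were called in 154Q[V591A;S602D]. The scaled value of the other 345 members was at or above 5.18. Dusp6 (scaled −log10 p 5.01) was among the 42, and Pknox1 (51.7), Emsy (43.0), Bach2 (19.6) and Mettl14 (8.73) were not. The scaling takes no account of differences between animals or of the fragments per cell, and their part in the absent calls was not tested.

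**Figure D3:**
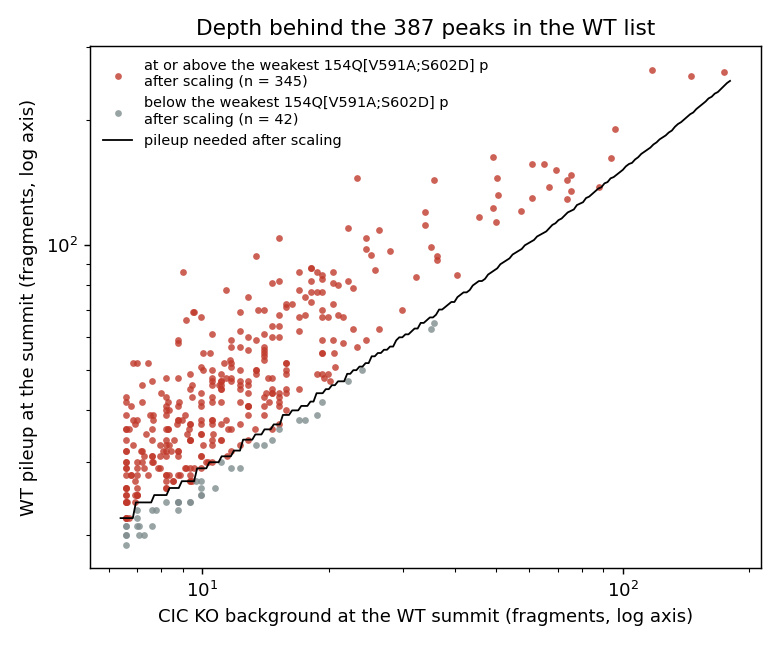
WT fragment pileup at the summit of each of the 387 members (vertical, log axis) against the CIC KO background there (horizontal, log axis), both recovered from the deposited fold enrichment and −log10 p. The line is the WT pileup that reaches a −log10 p of 5.18 after scaling to the 154Q[V591A;S602D] depth. The 42 grey points fall under that value and the 345 red points reach it.

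A start within 1 kb was part of the selection. Within that limit, the WT summit nearest the start lay a median of 90 bp from it, against 82 bp for peaks in all 3 lists, 123 bp for the WT list alone and 111 bp for all WT promoter peaks. It lay within 100 bp of the start in 53.7% of members, 58.5% of peaks in all 3 lists and 46.7% of all WT promoter peaks. Within 250 bp the shares were 85.0%, 86.5% and 76.0% in the same order. That summit lay upstream of the start in 293 of 387 members (75.7%), against 73.6% and 67.7%. The highest summit fell outside annotated genes in 208, in an intron in 88, in a UTR in 70, in a non-coding exon in 16 and in a coding exon in 5. Median GC content was 61.5% in members, 61.7% in peaks in all 3 lists and 60.9% in the WT list alone. Position and base composition of members and of peaks in all 3 lists were close in these medians, which were compared without a test.

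**Figure D4:**
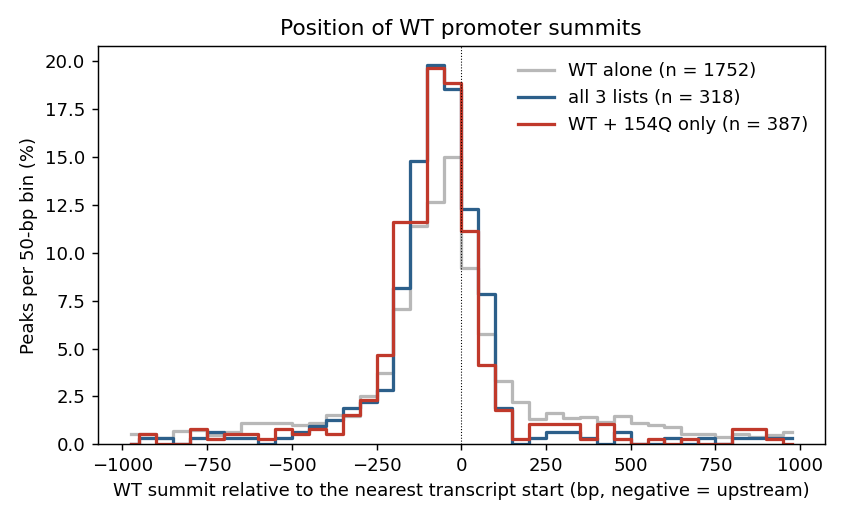
Position of the WT summit nearest a transcript start, in bp relative to that start with negative values upstream (horizontal), as the percentage of peaks of each set per 50-bp bin (vertical). Red is the 387 members, blue the 318 peaks in all 3 lists and grey the 1752 peaks in the WT list alone. All sets peak just upstream of the start, and the medians of the distance are 90, 82 and 123 bp.

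Starts on both strands lay within 1 kb of the highest summit in 24.0% of members, against 31.4% of peaks in all 3 lists and 24.9% of all WT promoter peaks. A protein-coding gene was the nearest in 89.9%. Several summits were called in 33.1% of members, 53.1% of peaks in all 3 lists, 16.0% of the WT list alone and 23.8% of all WT promoter peaks. The WT and 154Q summits of a member were a median of 25 bp apart, against 17 bp for peaks in all 3 lists, and were within 50 bp of each other in 287 of 387 members and 268 of 318 peaks in all 3 lists.

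Overlap with a 154Q[V591A;S602D] peak was excluded by the selection. The median gap to the nearest one was 299076 bp in members and 374472 bp in the WT list alone. The gap was over 100000 bp for 276 members, within 5000 bp for 28, within 500 bp for 9 and within 100 bp for 1. That last one was Mrpl34, a mitochondrial ribosomal protein gene, with a gap of 43 bp and a −log10 q of 15.5 in WT (rank 435) and 5.60 in 154Q (rank 574). For 33 members (8.53%) a 154Q[V591A;S602D] summit lay in the gene or within 5 kb of it, against 9.36% of peaks in the WT list alone. The share over all WT promoter peaks, 24.7%, includes the sets that overlap a 154Q[V591A;S602D] peak by definition and is no comparison. The 387 peaks belonged to 384 genes, and Lsm4, Zfp667 and Zfpm1 had 2 each. Both Lsm4 peaks matched a single 154Q peak (rank 194), as did both Zfpm1 peaks (rank 154), so these pairs are not independent.

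At the edges of the selection, Mir124a-1 (926 bp) and Hsp90ab1 (920 bp) were the members farthest from a start, and a summit at Rab3c (1093 bp) lay just outside. Smc3, whose peak overlapped a 154Q[V591A;S602D] interval by 3 bp, and Usp28 and Ado, each 4 bp from a 154Q peak, were not members. The weakest WT member was at Zfat (−log10 q 1.31) and the weakest 154Q member at Maco1 (1.31).

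The octamer was found at 8 of 387 members (2.07%, 95% Wilson interval 1.05 to 4.03). It was found at 16 of 318 peaks in all 3 lists (5.03%, 3.12 to 8.02) and at 18 of 1752 in the WT list alone (1.03%, 0.651 to 1.62). A window of equal length 500 bp from the summit, on the side away from the start, held it at 5 of 387 members (1.29%). Of 39599 annotated protein-coding starts, 0.894% held it within 50 bp. The share in members was 2.96 percentage points below that in all 3 lists (two-sided Fisher's exact test, p = 0.0368, adjusted p = 0.110 over 3 tests). It was 1.04 points above the WT list alone (Fisher's exact test, p = 0.118, adjusted p = 0.178) and 0.775 points above the flanks (exact McNemar test, p = 0.581, adjusted p = 0.581). None of the 3 differences passed the adjusted threshold of 0.05 in these settings. The difference from peaks in all 3 lists passed under other settings (Fisher's exact test), at −6.22 points with any WT summit (adjusted p = 0.000992), −6.55 with a −log10 q of 3 or more in all lists (0.00382), −3.52 with a 2 kb promoter distance (0.0399) and −3.58 with protein-coding starts only (0.0443). With any WT summit a window is searched at each summit, so peaks with several summits are searched over more sequence. Those were 53.1% of peaks in all 3 lists and 33.1% of members. The difference from the WT list alone passed with the 2 kb distance (1.45 points, Fisher's exact test, adjusted p = 0.0399). Peaks are not replicates of a genotype, and these p-values measure counting over peaks.

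The octamers were then counted by WT rank, in strata chosen after the data were seen and cut on a value behind the selection, so the p-values by rank are descriptive. Of the 16 octamers in all 3 lists, 10 were among 66 peaks of WT rank 1 to 100 and 3 among 77 of rank 101 to 300, where the 5 and 46 members held 0. At ranks 301 to 1000 the order was the other way, with 5 of 124 members (4.03%) against 2 of 103 peaks in all 3 lists (1.94%) and 2 of 217 in the WT list alone (0.922%), and the former difference did not pass (Fisher's exact test, adjusted p = 0.690). Without the 100 strongest WT peaks the shares were 2.09% and 2.38% (Fisher's exact test, adjusted p = 0.790). Counted over whole WT peaks, which are wider in all 3 lists, the octamer was in 23 of 387 members (5.94%), 39 of 318 (12.3%) and 35 of 1752 (2.00%), and both differences then passed (Fisher's exact test, adjusted p = 0.00701 and 0.000256), whereas that from flanks of the same width did not (5.17% of flanks, exact McNemar test, adjusted p = 0.720).

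The 8 octamer members ranked from 529 to 2959 in WT and from 100 to 1612 in 154Q. Psmb3 had a −log10 q of 11.5 in WT (rank 680) and 21.6 in 154Q (rank 114), with summits 1 bp apart. Cpeb2 had 3.33 in WT (rank 2580) and 19.6 in 154Q (rank 135). Vsnl1 was the strongest in WT at 13.5 (rank 529) and the weakest in 154Q at 1.42 (rank 1612). Chkb had 11.5 in WT and 3.59 in 154Q, Gm46102 had 11.3 and 3.31, Wasf1 had 10.1 and 4.79, and Fam213b had 8.62 and 3.54. In 154Q, Psmb3, Cpeb2 and B830012L14Rik were thus far above the other 5, which ranked between 673 and 1612.

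**Figure D5:**
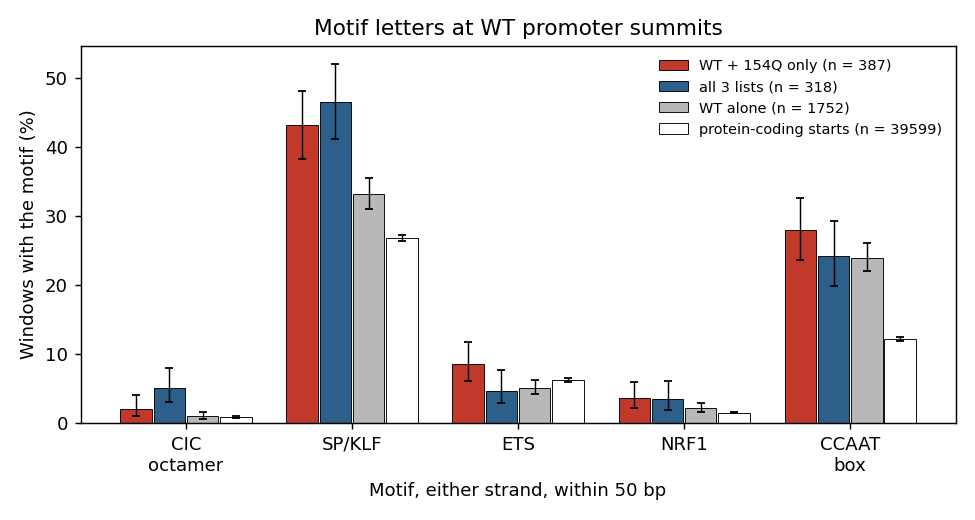
Percentage of 101-bp windows that hold each motif (vertical) for the CIC octamer, SP/KLF, ETS, NRF1 and CCAAT letters (horizontal). Red bars are members (n = 387), blue peaks in all 3 lists (n = 318), grey peaks in the WT list alone (n = 1752) and white annotated protein-coding starts (n = 39599), and error bars are 95% Wilson intervals over windows. The octamer is at 2.07% of members and GGGCGG at 43.2%.

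Letters of other promoter factors were searched on both strands in the same windows. They differ in length, so their shares are set beside other windows rather than beside each other. None of these motifs contains another, although neighbouring matches can share bases. GGGCGG was in 43.2% of members, 46.5% of peaks in all 3 lists, 33.2% of the WT list alone and 26.8% of windows at protein-coding starts. CCAAT, the box bound by NF-Y, was in 27.9% of members, 24.2%, 24.0% and 12.2% in the same order. CCGGAAG, an ETS motif, was in 8.53% of members, 4.72%, 5.14% and 6.23%, and in 16 of the 121 peaks shared by WT and 154Q[V591A;S602D] alone (13.2%). GCGCATGC, the NRF1 motif, was in 3.62%, 3.46%, 2.17% and 1.53%. TGACGTCA (CREB and ATF) was in 1.29% of members and 1.10% of windows at protein-coding starts. AAGATGGCG (YY1) was in 1.03% and 1.35%, GTTGCCA (RFX) in 1.03% and 1.37%, and TATAAA, which binds the general factor TBP, in 2.07% and 4.47%. Over all WT promoter peaks TGACGTCA was in 1.01%, AAGATGGCG in 0.815%, GTTGCCA in 1.12% and TATAAA in 1.75%. In peaks in all 3 lists GTTGCCA was in 0 of 318 and TATAAA in 1.57%. Windows at peaks are centred on summits and those at starts on the start itself, and a match is a description of letters, not of binding.

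Gene groups were read against all protein-coding genes with a WT promoter peak, of which 345 of 2093 (16.5%) had a member peak. Among 12 CIC target genes, 8 had a WT promoter peak, and 7 of these had one in all 3 lists. The exception was Dusp6, the phosphatase that inactivates ERK, at chr10:99263069-99263279, 111 bp upstream of its start. Its −log10 q was 2.29 in WT (rank 3238) and 15.7 in 154Q (rank 177), with summits 4 bp apart. These ranks come from lists of unequal length, and the difference was not tested. The nearest 154Q[V591A;S602D] peak was 1224115 bp away. The study itself singled out several of these targets in the same libraries, so the list is not independent of them. In the wider RAS-ERK list, 2 of 17 promoter-bound genes were members, Fosb (7.17 in WT, 3.15 in 154Q), an AP-1 subunit gene, and Rps6ka2 (9.05 and 1.88), which encodes an ERK-activated ribosomal S6 kinase.

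Of 5 promoter-bound genes for CIC and ATXN1 or their partners, 2 were members. The peak at Cic itself lay in an intron, chr7:25281879-25282366, with a nearest summit 78 bp downstream of a start, and had 14.01 in WT (rank 501) and 2.30 in 154Q (rank 1207). Cic is the gene deleted in the CIC KO control, and whether the deleted segment covers this interval was not tested. Hdac3, a histone deacetylase of the NCoR corepressor complex, had 9.64 in WT (rank 867) and 7.54 in 154Q (rank 405). Among inherited ataxia genes 1 of 5 was a member, Afg3l2, a mitochondrial protease gene, with 19.6 in WT (rank 291) and 10.1 in 154Q (rank 288). Among promoter-bound markers of cerebellar cell types, 0 of 1 Purkinje cell gene and 0 of 5 granule neuron genes were members. In the glial list 0 genes had a WT promoter peak. These counts are too small to be read against the 16.5% of all promoter-bound protein-coding genes. Merged tissue cannot tell fewer cells with a bound promoter from weaker binding per cell.

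In the respiratory chain, 6 of 19 promoter-bound genes were members (31.6%). Atp5d, the delta subunit of ATP synthase, had 19.98 in WT and 2.32 in 154Q. Atp5g1 had 17.3 and 4.48, and Cox8a, a cytochrome c oxidase subunit gene, had 6.53 and 15.7. The others in this group were Cox5a, Cox7a2l and the complex I gene Ndufv2. In the proteasome, 4 of 9 were members (44.4%). Besides Psmb3 these were the regulatory particle genes Psmc4 (19.3 and 1.52), Psmd3 (14.4 and 17.8) and Psmd8 (4.29 and 11.0). The other 5 proteasome genes were in the WT list alone, and 0 were in all 3 lists. With so few genes these shares are descriptions, and the groups were not tested.

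Cytosolic ribosomal protein genes gave 3 of 21 (Rplp2, Rps3 and Rps9) and mitochondrial ribosomal protein genes 1 of 13 (Mrpl34). Genes whose symbols start with Eif or Eef gave 3 of 14 (Eif2ak4, Eif4a1 and Eif4ebp2). Splicing factors gave 3 of 17 (Sf3b2, Srsf2 and U2af2) and RNA helicases 1 of 6 (Ddx5). Among all these members Eif4a1, the RNA helicase of the cap-binding complex, was the strongest, with 21.3 in WT (rank 258) and 16.0 in 154Q (rank 172). Rps3, a protein of the small ribosomal subunit, had 9.22 and 11.4.

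Cell cycle genes gave 5 of 23, and the other 18 included 0 peaks in all 3 lists. Cdk4, a G1 kinase gene, had 5.05 in WT and 6.63 in 154Q, and Cdk19, a Mediator kinase gene, had 6.98 and 11.5. Ccnk, whose product activates transcriptional CDKs, had 14.02 and 2.59. Ccne2, a G1/S cyclin gene, had 5.98 and 1.42, and the phosphatase gene Cdc14a had 8.60 and 5.25. Histone lysine methylases and demethylases gave 2 of 8, Kdm4a (16.7 and 1.97) and Kmt2b (6.57 and 2.78).

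Ubiquitin enzymes gave 9 of 50, among them the F-box genes Fbxo46 (14.4 in WT, 2.88 in 154Q) and Fbxo27 (14.4 and 3.81), Rnf121 (11.7 and 3.10) and the conjugating enzyme gene Ube2h (9.01 and 4.39). Chaperones gave 3 of 16, Dnajb2, Dnajc16 (11.3 and 7.05) and Hsp90ab1 (3.86 and 2.31). Solute carriers gave 8 of 36, of which 5 belong to the mitochondrial carrier family Slc25. The strongest were Slc25a44 (27.1 and 6.80) and the carnitine transporter gene Slc22a5 (21.9 and 5.45), and Slc52a2, a riboflavin transporter gene, had 16.0 and 18.7. Rab and Arf GTPases gave 4 of 19, Rab1a (8.03 and 7.76), Rab1b, Rab3c and Rab8a (6.25 and 1.43). The Rab3c member, at chr13:110280180-110280345, is a separate peak from the one just outside the selection. Zinc finger genes of the Zfp series gave 7 of 52, with Zfp27 (15.8 and 6.99), Zfp605 (9.86 and 3.07), Zfp667 and Zfp719 (7.53 and 11.3) among them. Kinesins and dyneins (6 promoter-bound genes), ion channels (6), glutamate and GABA receptors (4), tRNA synthetases (4) and histone genes (8) gave 0. With so few genes in each group, these counts are descriptions.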

How the data were processed

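The authors trimmed reads with Trimmomatic (0.36), aligned them with Bowtie2 (2.3.4.1) to mm10 and an E. coli spike-in genome, kept CIC fragments under 120 bp, removed blacklisted regions (SAMtools 1.10, bedtools 2.29.1), merged the replicates of each genotype and called peaks with MACS3 at a q-value of 0.05 against merged CIC KO. For WT and 154Q[V591A;S602D] the authors deposited a fold enrichment, a ratio of pileup to background each plus 1, a −log10 p score and a −log10 q. The deposited 154Q list gives −log10 q at 1-bp summits. Merging weights each animal by its reads and leaves no replicate spread.

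Lines were collapsed to peaks by peak number, and each 154Q peak ran from its first to its last summit. Starts came from GENCODE M21 basic and sequence from RefSeq GRCm38.p6. Pileup and background were recovered from these columns to within 0.02 of the −log10 p, which succeeded for 2576 of 2578 promoter peaks. Python 3.11.15, numpy 2.4.6, scipy 1.17.1 and pysam 0.24.0 were used, and the steps were tested on simulated data. Shares carry 95% Wilson intervals. Coordinates are 1-based.

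The 387 peaks and the gene lists were chosen with earlier results of these data known. Named genes are the 10 strongest members in WT and in 154Q, octamer members, members of hand-picked lists, members at the edges of the selection and up to 4 examples of families with 3 or more members. A few others were named after their values were seen. Alternatives changed the promoter distance, summits, annotation, overlap, −log10 q, repeat filter, chromosomes, motif window, octamer spellings and flank.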

Additional observations from a re-analysis of the deposited data

How the results depend on the processing

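The number of peaks was 387, and 10 of 11 alternatives kept it between 293 and 412. A −log10 q of 3 or more in WT and 154Q left 221. The median start-site distance was 90 bp, and 109 bp with the highest summit only, the single alternative of 11 to move it beyond its 95% interval. Median GC stayed between 61.2% and 61.9% under all 11.

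The octamer share of the peaks less that of peaks in all 3 lists was −2.96 percentage points (Fisher's exact test, adjusted p = 0.110). By the same exact test it passed the threshold with a 2 kb promoter distance (−3.52, adjusted p = 0.0399), protein-coding starts only (−3.58, 0.0443), −log10 q of 3 or more in all lists (−6.55, 0.00382), any WT summit (−6.22, 0.000992) and the whole WT peak (−6.32, 0.00701). Any WT summit and the whole WT peak search more sequence in peaks of all 3 lists, which are wider and more often have several summits. The difference was reversed at WT ranks 301 to 1000 (2.09, exact test, adjusted p = 0.690), an alternative chosen after seeing the data. So were the omission of the 100 strongest WT peaks (−0.287, 0.790) and the comprehensive annotation. Adjusted p ran from 0.000992 to 0.790 over 17 alternatives. The difference from the WT list alone passed with a 2 kb distance (1.45, Fisher's exact test, adjusted p = 0.0399) and the whole WT peak (3.95, 0.000256) and failed in the other 15. The difference from flanks passed in 0 of 18, with adjusted p from 0.118 to 1 (exact McNemar tests, lowest unadjusted p 0.109). The cause of these changes was not tested.

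No paired analysis was possible because the peak lists used here were called on merged replicates of each genotype, and no animal was left out for the same reason. The depth ratio behind the scaled pileups is a single estimate with no error, and that scaling was also chosen after seeing the data. The part of depth in the absent calls was not tested.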
